A study of Schizosaccharomyces pombe with 9 samples.

Results

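The 10 ade genes of the fission yeast Schizosaccharomyces pombe, ade1 to ade10, were followed across 3 genotypes by RNA sequencing of poly(A) RNA. They were picked by name, with earlier results of these data known. Each of the 10 symbols stood once among the 5212 genes of the deposited tables, and all 10 had enough counts to be among the 5119 genes tested. The 9 libraries fall into 3 groups of 3. One group carries the htb1-E112K allele, a substitution in histone H2B, together with clr6-1, an allele of the histone deacetylase gene clr6 (E112K clr6-1), one carries htb1-E112K alone (E112K), and one is wild type (WT). The labels do not say whether a strain is a single isolate, give no ade6 or other marker genotype, and list no strain with clr6-1 alone. They do not state separate cultures either, so p-values reflect only how these samples vary, and that variation may be technical.

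Purine nucleotides are built on phosphoribosyl pyrophosphate (PRPP) in a chain of reactions that ends in inosine monophosphate (IMP), from which one branch leads to AMP and another to GMP. The ade genes encode the enzymes of the chain to IMP, those of the AMP branch and an enzyme that supplies the one-carbon units used on the way. Without Ade6 an intermediate builds up that turns colonies red on little adenine, which made ade6 a standard marker in this yeast.

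The libraries held 16469576 to 20013351 counts each, and a single ade gene had between 1745 and 15023 counts in a library, for which counting error alone gives a coefficient of variation of 2.39% and 0.816%. Levels are in CPM, which divides each count by the library's total after TMM scaling in edgeR, and adjusted p-values come from edgeR's quasi-likelihood test with Benjamini-Hochberg adjustment over all 5119 genes. The mutated histone gene htb1 had 5556, 5319 and 5431 CPM in E112K clr6-1, 5248, 5151 and 4995 CPM in E112K and 1645, 1643 and 1719 CPM in WT. Transcripts of clr6 were at 119 ± 1.47 CPM in E112K clr6-1, 87.1 ± 1.77 CPM in E112K and 142 ± 7.08 CPM in WT (SD, n = 3). A transcript level does not show whether a library carries either point mutation. The groups also differed at a second marker of this yeast, ura4, for an enzyme of pyrimidine synthesis: it had 2911, 2562 and 2451 counts in the E112K clr6-1 libraries and 0 counts in all E112K and WT libraries. In both comparisons of E112K clr6-1 the presence of ura4 transcripts and the clr6-1 allele cannot be told apart.

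Per transcript length, by the authors' FPKM values, the ade genes were moderately to highly expressed, and their order differed between the groups at a few places. In WT, ade2 (416 ± 8.18 FPKM, SD, n = 3) and ade10 (371 ± 8.67 FPKM) led and ade9 was lowest at 47.9 ± 1.44 FPKM, and at each step of the order the libraries of neighbouring genes did not overlap. The WT span from highest to lowest was 8.68-fold, and the median of all genes there was 47.0 FPKM. In E112K, ade2 stayed first at 321 ± 4.99 FPKM, ade6 stood below ade5, and the libraries of ade3 and ade1 overlapped, as did those of ade8 and ade5. In E112K clr6-1, ade10 (223 ± 0.0817 FPKM) and ade4 (216 ± 4.53 FPKM) stood above ade2 (192 ± 3.21 FPKM), every library of each above every library of the next, and the span to ade9 was 4.72-fold.

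**Figure D1:**
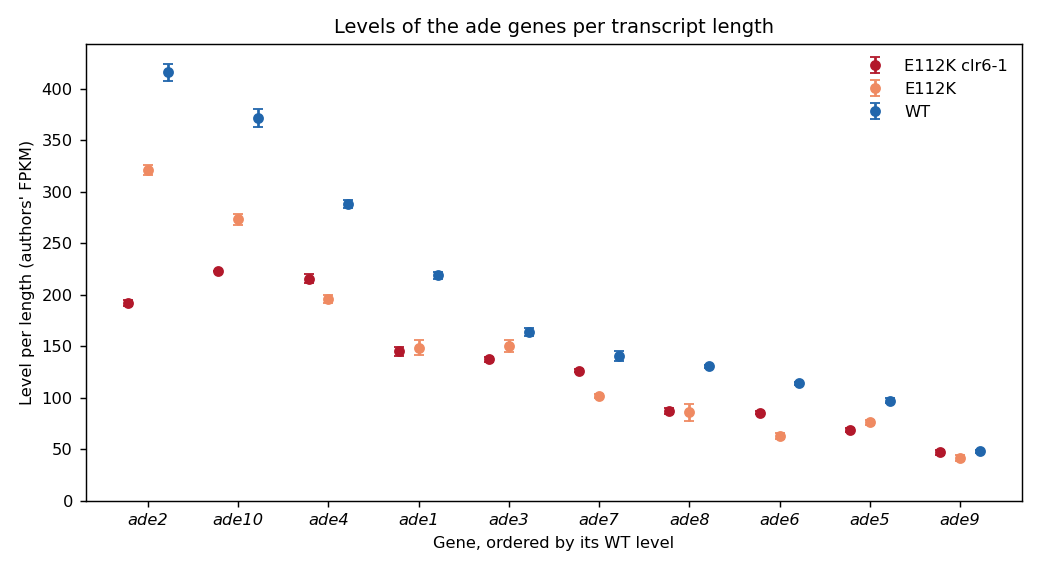
Level per transcript length of each ade gene (authors' FPKM, linear axis), as the mean and SD of the 3 libraries of E112K clr6-1, E112K and WT, with genes ordered by their WT level. In WT the levels run from ade2 at 416 to ade9 at 47.9 FPKM, whereas in E112K clr6-1 ade2 lies at 192 FPKM, below ade10 and ade4.

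Together the ade genes took less of the RNA in both mutants. Their summed level was 2981, 3112 and 3037 CPM in the E112K clr6-1 libraries, 3124, 3357 and 3266 CPM in the E112K libraries and 4289, 4173 and 4400 CPM in the WT libraries. Every mutant library lay below every WT library. Their share of the counts was 0.298 to 0.307% in E112K clr6-1, 0.311 to 0.332% in E112K and 0.427 to 0.439% in WT. In cultures measured whole, a lower level in each cell and fewer cells that hold the transcript cannot be told apart.

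**Figure D2:**
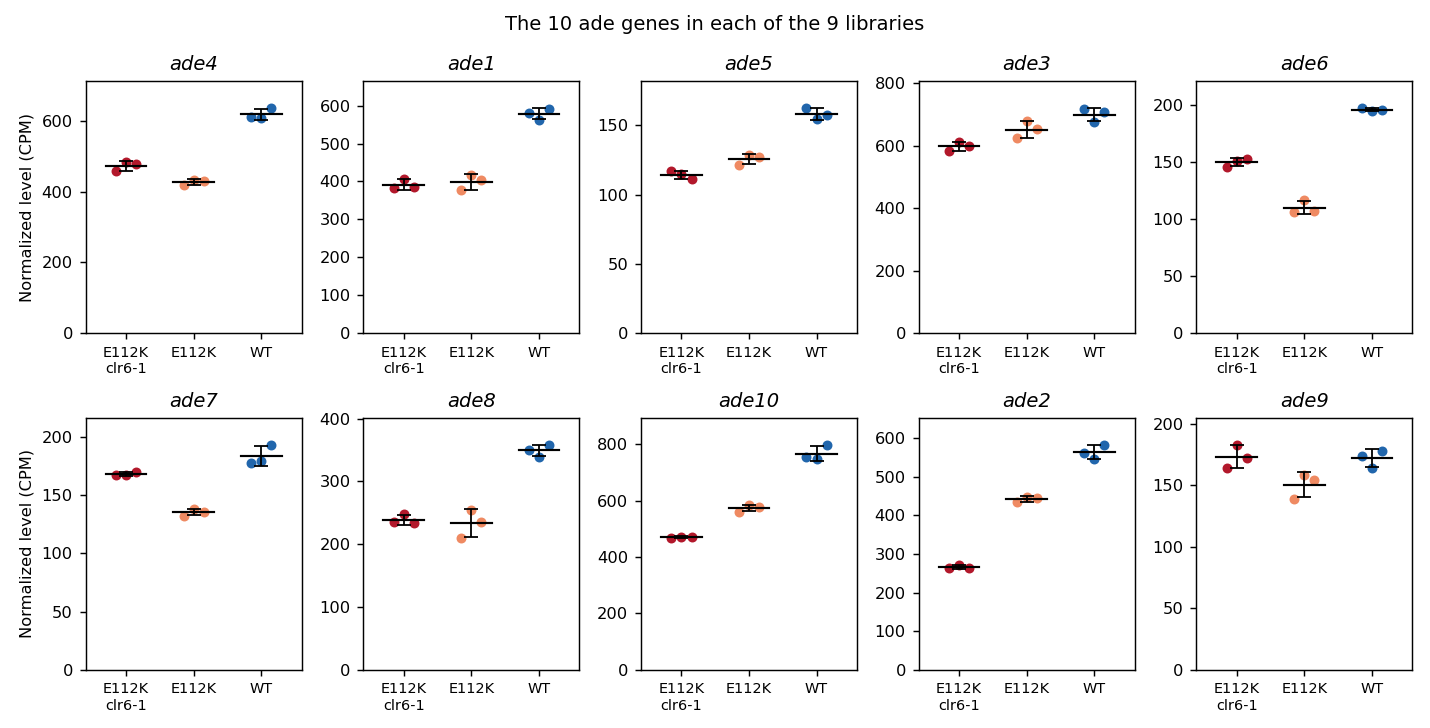
Normalized level (CPM, linear axis from 0, scaled per gene) of each ade gene in the 3 libraries of E112K clr6-1, E112K and WT; points are libraries, the horizontal line is the mean and the bar the SD. WT lies above both mutants for 8 genes without overlap, while the WT libraries overlap those of E112K for ade3 and those of E112K clr6-1 for ade9.

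The comparison of E112K with WT set the strain with the H2B allele against the wild type. Transcripts of htb1 were also higher in E112K, by 1.62 on the log2 scale (adjusted p = 9.34e-13 in edgeR), and the allele and this level cannot be told apart. All 10 ade genes fell in E112K, by 0.10 to 0.83 on the log2 scale with a median of -0.43, and for 9 of them the E112K and WT libraries did not overlap. Of all tested genes 76.5% were called in this comparison and 38.9% were called lower, the libraries of 78% did not overlap, and the median log2 fold change was -0.006. Among the 1900 genes at least as abundant as the lowest ade gene, 44.7% were called lower. None of the 10 falls reached 2-fold.

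Transcripts for the enzymes of the early chain were lower to unequal degrees. The amidophosphoribosyltransferase gene ade4, whose product makes the committed step from PRPP, had 419, 434 and 430 CPM in E112K, against 612, 610 and 638 CPM in WT. It fell by 0.54 on the log2 scale (SE 0.033, adjusted p = 9.02e-09), and no E112K library came near a WT library. The gene ade1, for a bifunctional enzyme that acts just after Ade4 and again later in the chain, had 377, 417 and 404 CPM in E112K and 582, 562 and 592 CPM in WT, a log2 change of -0.53. Its partner of the step between, the glycinamide formyltransferase gene ade5, averaged 126 ± 3.54 CPM in E112K, against 158 ± 4.14 CPM in WT (SD, n = 3) and fell by 0.33.

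The smallest fall was that of ade3, which encodes the amidotransferase that follows Ade5. It had 623, 678 and 652 CPM in E112K, against 716, 676 and 707 CPM in WT. The groups overlapped, since the highest E112K library exceeded the lowest WT library. The log2 change of -0.10 (SE 0.038, adjusted p = 0.0246 in edgeR's quasi-likelihood test) was no longer called when E112K replicate 1 or 3 or WT replicate 1 or 3 was left out (adjusted p = 0.0926, 0.0533, 0.0887 and 0.0548 in edgeR).

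The marker gene ade6, whose product carboxylates the imidazole intermediate of the chain, showed the largest fall of the 10 in E112K. It had 106, 117 and 107 CPM in E112K, against 198, 195 and 196 CPM in WT. The WT libraries were nearly equal, and all E112K libraries were far below them. It fell by 0.83 on the log2 scale (SE 0.036, adjusted p = 3.04e-10 in edgeR), to 56.1% of the WT level, and 3.16% of tested genes had an equal or lower log2 fold change. The share of ade6 in the summed level of the 10 genes was 3.39 ± 0.098% in E112K and 4.58 ± 0.109% in WT.

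Downstream of ade6, the chain to IMP fell as well. The SAICAR synthetase gene ade7 averaged 135 ± 2.71 CPM in E112K, against 184 ± 8.67 CPM in WT, and fell by 0.44 on the log2 scale. The adenylosuccinate lyase gene ade8, whose product acts both before IMP and in the AMP branch, had 210, 255 and 236 CPM in E112K and 350, 340 and 358 CPM in WT. It fell by 0.58, with the widest spread of the 10 genes in E112K relative to the mean. The gene ade10, for the bifunctional enzyme that closes the ring to IMP, averaged 573 ± 11.5 CPM in E112K, against 766 ± 27.7 CPM in WT, a log2 change of -0.42.

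In the AMP branch, the adenylosuccinate synthetase gene ade2 had 435, 448 and 444 CPM in E112K and 562, 546 and 583 CPM in WT, and fell by 0.35 on the log2 scale. The gene ade9, for the trifunctional C1-tetrahydrofolate synthase that makes formyl groups for purine synthesis, had 139, 158 and 154 CPM in E112K and 173, 164 and 178 CPM in WT. Its log2 change of -0.19 (SE 0.052, adjusted p = 0.00474 in edgeR) was called although the nearest libraries of the groups lay close together. In the authors' deposited table all genes but ade3 are lower in E112K at an FDR under 0.05, with ade6 at a log2 fold change of -0.86 and ade3 at an FDR of 0.0727.

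The ade genes ranked the E112K replicates alike, and those of the other groups less uniformly. In E112K, replicate 1 had the lowest level of its group for all 10 ade genes and replicate 2 the highest for all 10, whereas over all tested genes 33.4% were lowest in replicate 1 of E112K. In WT, replicate 2 was lowest for 9 of the 10, beside 33.7% of all tested genes, and replicate 3 was highest for 7. In E112K clr6-1, replicate 1 was lowest for 6 and replicate 3 for 3, beside 33.8% and 32.5% of all tested genes. Replicate 2 of that group was highest for 7. Shares of all tested genes were not taken for the highest replicate. The coefficient of variation of an ade gene within a group ran from 0.748 to 5.45% in E112K clr6-1, from 1.55 to 9.54% in E112K and from 0.713 to 4.72% in WT, so the lower end of each range is of the size of counting error. Without E112K replicate 1, 9 of the 10 genes were called against WT, ade3 being the one lost.

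Comparison of E112K clr6-1 with WT asked how the strain with both alleles differs. It shares the WT libraries with the first comparison. Transcripts of htb1 were higher in E112K clr6-1 too, by 1.70 on the log2 scale (adjusted p = 4.59e-13 in edgeR). The alleles and this level cannot be told apart. Here 9 of the 10 ade genes fell, ade9 was not called, and the median log2 fold change was -0.43, and the libraries of 9 did not overlap. Of all tested genes 83.7% were called and 42% were called lower, and the libraries of 84.8% did not overlap; among the 1900 genes at least as abundant as the lowest ade gene 49.4% were called lower. One gene, ade2, fell by more than 2-fold.

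The AMP branch gene ade2 had 264, 272 and 263 CPM in E112K clr6-1, against 562, 546 and 583 CPM in WT. The groups lay far apart. It fell by 1.08 on the log2 scale (SE 0.033, adjusted p = 5.26e-12 in edgeR), to 47.2% of the WT level, and 2.62% of tested genes had an equal or lower log2 fold change. The IMP-forming gene ade10 had 466, 472 and 472 CPM in E112K clr6-1, against 755, 746 and 798 CPM in WT, a log2 change of -0.71 (SE 0.033, adjusted p = 3.82e-10 in edgeR).

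Of the early enzymes, ade1 fell by 0.56 on the log2 scale, to 392 ± 13.5 CPM in E112K clr6-1 against 579 ± 15.01 CPM in WT (SD, n = 3). The lyase gene ade8 fell by 0.55, to 239 ± 8.23 CPM in E112K clr6-1 against 349 ± 9.12 CPM in WT. The log2 changes of ade5 and ade4 were -0.47 and -0.39. The amidotransferase gene ade3 fell by 0.23, to 582, 613 and 599 CPM in E112K clr6-1 against 716, 676 and 707 CPM in WT, and here the groups did not overlap.

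The marker ade6 had 146, 152 and 153 CPM in E112K clr6-1, against 198, 195 and 196 CPM in WT, and fell by 0.39 on the log2 scale (SE 0.035, adjusted p = 3.11e-07 in edgeR). The next gene of the chain, ade7, had 168, 167 and 170 CPM in E112K clr6-1, against 178, 179 and 194 CPM in WT, a log2 change of -0.12 (adjusted p = 0.00463 in edgeR). The one-carbon gene ade9 was at 164, 183 and 172 CPM in E112K clr6-1 and 173, 164 and 178 CPM in WT. These libraries overlapped throughout, and the log2 difference of 0.01 (SE 0.052, adjusted p = 0.862 in edgeR) did not pass the test. In the authors' deposited table all but ade7 and ade9 are lower at an FDR under 0.05 in this comparison.

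**Figure D3:**
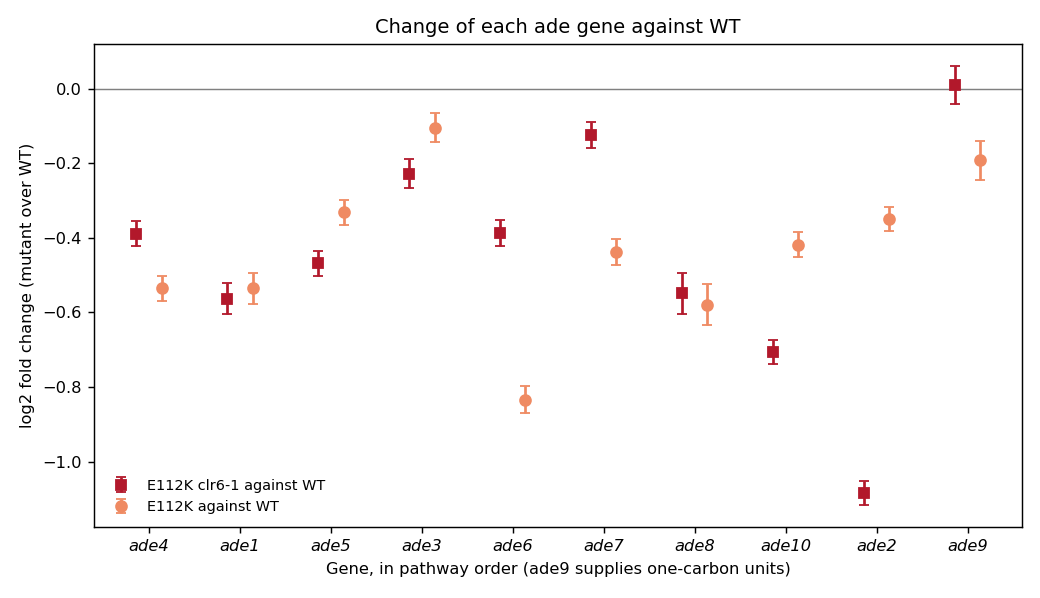
Log2 fold change of each ade gene against WT in E112K clr6-1 (squares) and E112K (circles), in pathway order with ade9 last; bars are the standard error of the edgeR fit over 9 libraries. The lowest gene is ade2 at -1.08 in E112K clr6-1 and ade6 at -0.83 in E112K; the 2 sets of points share the WT libraries.

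The third comparison, E112K clr6-1 against E112K, is also the test of whether the changes against WT differ between the mutants. The ade genes divided: ade6, ade7, ade9 and ade4 were higher in E112K clr6-1, while ade2, ade10, ade5 and ade3 were lower, and ade1 and ade8 did not pass the test. Of all tested genes 78.8% were called, 40.2% higher and 38.6% lower, and the libraries of 80.5% did not overlap, against 8 of the 10 ade genes. The median log2 fold change of the 10 was 0.001, with a range from -0.73 to 0.45.

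Among the higher ones, ade6 and ade7 act at adjoining steps of the chain and differed most. The carboxylase gene ade6 had 146, 152 and 153 CPM in E112K clr6-1, against 106, 117 and 107 CPM in E112K, and was 1.36-fold higher (SE 0.037 on the log2 scale, adjusted p = 1.58e-07 in edgeR). All E112K clr6-1 libraries exceeded all E112K libraries, and both groups lay below WT. The synthetase gene ade7 had 168, 167 and 170 CPM in E112K clr6-1 and 132, 138 and 136 CPM in E112K, 1.24-fold higher (adjusted p = 3.01e-06 in edgeR). The one-carbon gene ade9 was 1.15-fold higher (adjusted p = 0.00329 in edgeR) and ade4 1.11-fold higher (adjusted p = 0.00123 in edgeR).

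Among the lower ones, ade2 stood apart, with 264, 272 and 263 CPM in E112K clr6-1 and 435, 448 and 444 CPM in E112K. It fell by 0.73 on the log2 scale (SE 0.033, adjusted p = 4.43e-10 in edgeR), to 60.2% of the E112K level. Its share of the summed level of the 10 genes was 8.74 ± 0.095% in E112K clr6-1, 13.6 ± 0.286% in E112K and 13.2 ± 0.086% in WT. The gene ade10 fell by 0.29 (adjusted p = 3.91e-06 in edgeR), and ade5 and ade3 fell by 0.14 and 0.12. For ade3 the call was lost without E112K clr6-1 replicate 1 (adjusted p = 0.0565 in edgeR) and without E112K replicate 2 (adjusted p = 0.0641 in edgeR). The other gene of the AMP branch, ade8, did not pass the test, with a log2 difference of 0.03 (SE 0.056), nor did ade1, with -0.03 (SE 0.041).

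**Figure D4:**
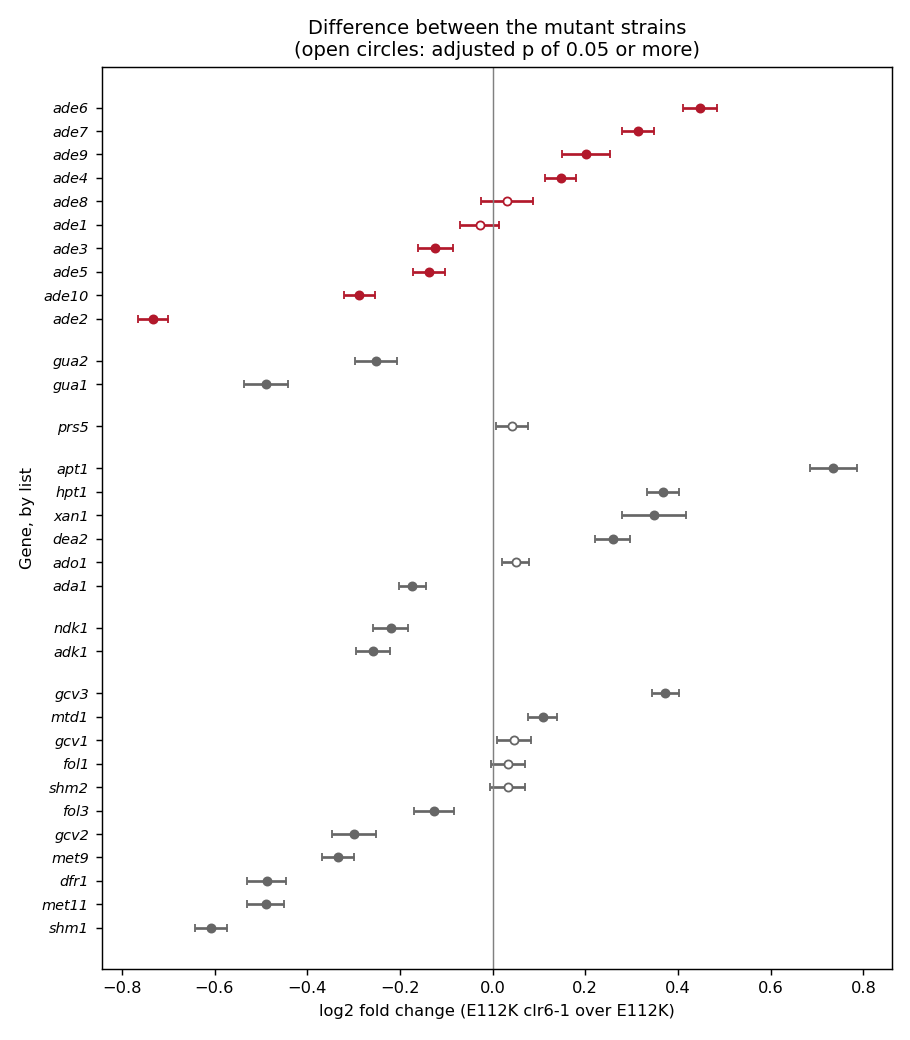
Log2 fold change of E112K clr6-1 over E112K, with the standard error of the edgeR fit, for the 10 ade genes (red, top block) and for other purine and one-carbon genes (grey, in blocks by list: GMP branch, PRPP supply, salvage and uptake, nucleotide kinases, one-carbon). Open circles did not pass the test. The ade genes run from 0.45 for ade6 to -0.73 for ade2, and apt1 lies highest of all at 0.74.

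Other genes of purine and one-carbon metabolism were read from lists chosen by symbol. Of 33 symbols 24 were in the tables, and prs1 and fur4 were set aside because their deposited descriptions name a proline-tRNA ligase and a uracil permease. Of the 22 left, E112K had 1 gene above and 14 genes below WT, with a median log2 fold change of -0.32, where 37.6% of all tested genes were called higher and 38.9% lower. In E112K clr6-1, 3 were above and 18 below WT, with a median of -0.44, where 41.7% of all tested genes were called higher and 42% lower. Set against E112K, the E112K clr6-1 strain had 6 genes higher, 11 lower and a median of -0.05, beside 40.2% higher and 38.6% lower over all tested genes. The counts were different over the wider purine metabolism group of the KEGG annotation in the deposited tables, which held 76 tested genes besides ade genes. Of these, 18 were higher and 35 lower in E112K against WT, with a median log2 fold change of -0.09. In E112K clr6-1 against WT 35 were higher and 35 lower, with a median of -0.06, and in E112K clr6-1 against E112K 37 were higher and 19 lower, with a median of 0.12.

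Salvage genes, which recycle free bases and nucleosides, included the largest falls of these lists in E112K against WT. Of the 6 salvage and uptake genes kept, 4 were called lower there, beside 38.9% of all tested genes. The adenosine deaminase gene ada1 was called higher (log2 change 0.31), and the xanthine dioxygenase gene xan1 was not called (0.03). The adenine phosphoribosyltransferase gene apt1 had 118, 125 and 127 CPM in E112K, against 371, 368 and 326 CPM in WT, a log2 change of -1.52 (adjusted p = 1.56e-11 in edgeR). The adenine deaminase gene dea2 had 88.7, 88.5 and 94.1 CPM in E112K, against 238, 241 and 249 CPM in WT, a log2 change of -1.42. The xanthine phosphoribosyltransferase gene hpt1 and mtd1, annotated as a methylenetetrahydrofolate reductase gene, fell by 0.80 and 0.87. The log2 changes of apt1 and dea2 were larger in size than that of any ade gene in that comparison, a difference that was not tested.

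In E112K clr6-1 against WT, dea2 fell by 1.16 on the log2 scale, the serine hydroxymethyltransferase gene shm1, a source of one-carbon units, fell by 1.01, the dihydrofolate reductase gene dfr1 fell by 0.92 and mtd1 fell by 0.76. From the salvage and uptake list, ada1 and the xanthine dioxygenase gene xan1 were called higher there, with log2 changes of 0.13 and 0.37. Transcripts of shm1 were at 841 ± 23.1 CPM in E112K clr6-1, 1282 ± 24.8 CPM in E112K and 1698 ± 39.9 CPM in WT (SD, n = 3). Against E112K, E112K clr6-1 had shm1 lower by a log2 change of -0.61 and met11 by -0.49, while apt1 was 1.67-fold and the glycine cleavage gene gcv3 1.29-fold higher. The GMP branch genes gua1, for IMP dehydrogenase, and gua2, for GMP synthase, did not pass the test in E112K against WT (log2 differences of 0.10 and -0.10; adjusted p = 0.0737 and 0.063 in edgeR). Both fell in E112K clr6-1, by 0.39 and 0.35 against WT and by 0.49 and 0.25 against E112K.

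For scale, histidine synthesis genes were read by the symbols his1 to his9 alone, of which 6 were present. All 6 fell in both comparisons with WT, where 38.9% and 42% of all tested genes were called lower. Their median log2 fold change was -0.60 in E112K and -0.64 in E112K clr6-1. Of 5 pyrimidine genes ura1 to ura5, 1 was higher and 3 lower in each comparison with WT. Of all tested genes 37.6% were called higher in E112K and 41.7% in E112K clr6-1. The higher pyrimidine gene was ura1 in E112K. In E112K clr6-1 it was ura4, which had 0 counts in all E112K and WT libraries and is the marker difference given above.

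By the RefSeq annotation of ASM294v3, used only for names and neighbours because the build behind the files is not named, the 10 genes lie on all 3 chromosomes, 3 on I, 4 on II and 3 on III. The genes next to ade6 moved the other way in E112K against WT. The checkpoint kinase gene bub1 on one side and vtc4, for a subunit of the vacuolar transporter chaperone complex, on the other had log2 changes of 0.50 and 0.53 there, both called. Over all tested genes 37.6% were called higher in that comparison. In E112K clr6-1 against WT, where ade6 fell by 0.39, bub1 was called higher by only 0.14 and vtc4 was not called (0.04). In E112K clr6-1 against E112K, where ade6 was higher, bub1 and vtc4 fell by 0.36 and 0.49.

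Another annotated gene overlaps 9 of the 10 ade genes, mostly an antisense non-coding RNA that the tables do not list, and ade10 is the exception. Whether counting used the strand is not stated, so reads of the overlapping partners cannot be told apart. For 3 genes an overlapping partner was itself measured. The Mediator gene med7, antisense to ade8, was at 72.2 ± 4.997 CPM in E112K clr6-1, 80.1 ± 12.3 CPM in E112K and 144 ± 5.57 CPM in WT, while SPBC14F5.10c, which overlaps ade8 on the same strand, was at 150 ± 0.647 CPM in E112K clr6-1, 103 ± 7.89 CPM in E112K and 88.9 ± 2.66 CPM in WT. The partner SPBC405.02c of ade1 fell by 0.19 in E112K and by 0.30 in E112K clr6-1 against WT. The partner crs1 of ade9 was called higher in both mutants against WT, at a low level of 1.097 ± 0.439 CPM in E112K clr6-1, 1.05 ± 0.203 CPM in E112K and 0.396 ± 0.129 CPM in WT. The part of these overlaps in the values of ade1, ade8 and ade9 was not tested.

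The genes whose pattern over the 9 libraries was nearest to that of ade6, by the root mean square distance of centred log2 CPM, were rib4 (0.0455), for an enzyme of riboflavin synthesis, rpl1002 (0.047), for a ribosomal protein of the large subunit, and ala1 (0.0517), for alanine-tRNA ligase. Their log2 fold changes were -0.87, -0.86 and -0.82 in E112K against WT, and -0.43, -0.42 and -0.47 in E112K clr6-1 against WT. Of the other ade genes, ade4 was nearest to ade6, at a distance of 0.145 with 114 tested genes nearer, and ade2 was farthest, at 0.486 with 3466 nearer.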

How the data were processed

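The deposited tables hold, per the file headers, whole-number counts per gene and library together with the authors' FPKM, a log2 fold change of mean FPKM, and a p-value and FDR of the authors' own test. Among the tools listed in the submitters' processing notes, with no version or role, are RSEM, StringTie, HISAT2, Bowtie2, fastp and DESeq2; if RSEM made the counts, they are rounded estimates. The sources used here do not give build, annotation or strand. Libraries were mapped from their labels, and WT counts were identical in both tables.

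Counts of all 9 libraries were fitted together in edgeR 4.0.16 (R 4.3.3; filterByExpr, TMM factors 0.987 to 1.02, quasi-likelihood test, one mean per group), and genes with an adjusted p under 0.05 were called. The common biological coefficient of variation was 0.0389. Standard errors are the log2 fold change over the square root of its F. Replicate pairs differed beyond sampling noise (chi-square per degree of freedom 2.96 to 9.67). On simulated data the fit called 16 to 30% of 1.1-fold changes and 90 to 98% of 1.25-fold changes over the 3 comparisons. A gene that was not called may therefore still differ by a small amount. The share of changes of these sizes that is called in the deposited counts was not tested.

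The ade genes and the other lists were chosen with earlier results of these data known. Named beyond the 10 were up to 4 list genes per comparison with the smallest adjusted p and those changed at least 2-fold without overlap. Also named were gua1, gua2, ada1, xan1, the neighbours of ade6 and of overlapped ade genes, and the 3 genes nearest to ade6. Of these, gua1, gua2, ada1 and xan1 were added after their values were seen. Alternatives were DESeq2 1.42.0, RLE factors, library totals, no count filter, fits of the 2 groups compared, a replicate block and leaving out each library. The filtered tables were not used here.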

Additional observations from a re-analysis of the deposited data

How the results depend on the processing

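Counts of called ade genes and of all called genes stayed within 1.5 times of the reported ones under DESeq2, RLE factors, library totals, no count filter, fits of the 2 groups compared and the replicate block. The called ade genes stayed at 10 for E112K against WT, 9 for E112K clr6-1 against WT and 8 for E112K clr6-1 against E112K. In the same order, 3815 to 3921, 4189 to 4296 and 3944 to 4063 of all genes were called under these alternatives. Leaving out each library in turn gave 9 to 10 called ade genes for E112K against WT, 9 in every fit for E112K clr6-1 against WT and 7 to 8 for E112K clr6-1 against E112K. Over all genes these fits called 3749 to 3904, 4129 to 4308 and 3850 to 4109.

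Of 180 values for single ade genes under the alternatives that kept every library in the groups compared, 179 kept direction and call; of 270 without a library, 260 did. The 6 lost calls were all of ade3. The 5 changes of sign were of values that did not pass the test. For ade9 in E112K clr6-1 against WT the log2 fold change was -0.021 with library totals and ran from -0.027 (without E112K clr6-1 replicate 2) to 0.052 over the fits without a library, with -0.019 without WT replicate 2. Between the mutants these fits gave -0.063 to 0.010 for ade1, positive without E112K replicate 2, and -0.033 to 0.103 for ade8, negative without E112K replicate 1. The cause was not tested.

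Replicate numbers did not pair the libraries (correlations of same-numbered deviations from -0.172 to 0.184 over 9 pairs). With the number as a replicate block, 10, 9 and 8 ade genes and 3876, 4267 and 4015 of all genes were called in the 3 comparisons, in the order above; 2 of the 9 libraries correlated best with a library with the same number, a hint from the data and not from the design. A single value of the lowest ade count, 1745, carries a counting error of 2.39%; depth itself was not varied.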

Other observations

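Genes of purine breakdown and supply outside the lists above were read by their deposited descriptions and were chosen after their values were seen. In E112K against WT, a predicted purine nucleoside phosphorylase gene (SPAC1805.16c) averaged 61.6 ± 3.97 CPM in the E112K libraries and 123.1 ± 6.06 CPM in those of WT (SD, n = 3), a log2 change of -0.999. The predicted uricase gene SPCC1223.09 had a log2 change of -0.83, the hydroxyisourate hydrolase gene SPCC285.04 one of -0.70 and the guanine deaminase gene gud1 one of -0.55, each with an adjusted p under 0.05 in edgeR. Of the later steps of that route, the urease gene ure2 also fell, by 0.45 (adjusted p = 3.48e-06 in edgeR). The allantoicase gene SPAC1F7.09c (log2 change -0.14) and dal1, for a ureidoglycolate hydrolase (0.02), were not called there. Nor were the adenine deaminase gene SPBC1683.02 (0.09) and the IMP 5'-nucleotidase gene SPBC30D10.03c (0.08), both predicted, or xan1 of the lists above (0.03). Between the mutants, SPAC1805.16c, SPCC1223.09, SPCC285.04 and gud1 were each higher in E112K clr6-1, with log2 changes of 0.17, 0.39, 0.47 and 0.25, as was SPAC1F7.09c with 0.22. There dal1 and the predicted adenine deaminase gene SPBC1683.02 were lower, with log2 changes of -0.47 and -0.22, and ure2 was not called (-0.03).

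The genes described as PRPP synthetases did not move alike between the mutants. SPAC4A8.14 stood at 231 ± 2.40 CPM in E112K clr6-1, 155 ± 4.72 CPM in E112K and 194 ± 3.92 CPM in WT, thus below WT in one mutant and above it in the other. Against WT, prs5 and SPCC1620.06c were lower in both mutants, with log2 changes of -0.59 and -0.31 in E112K clr6-1 and -0.63 and -0.28 in E112K.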
